A study of Homo sapiens with 4 samples.

Results

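Oxidative phosphorylation genes of the nuclear genome were followed in ATAC-seq profiles, which count transposase insertions as a measure of how open chromatin is. Members were the protein-coding genes of the deposited region table whose symbol starts with NDUFA, NDUFB, NDUFC, NDUFS, NDUFV, UQCR or ATP5, or with COX and a digit, together with SDHA, SDHB, SDHC, SDHD and CYC1. The rule found 172 regions nearest 91 genes, out of 58127 regions in all. The samples were MCF10A cells, an established line of immortalised human breast epithelium, with 2 libraries (A and B) for each of 2 groups. The first group (shG8d) is labelled as a knockdown of SNHG8d, a form of the noncoding RNA SNHG8, and the second (shNC) as its control; both names are those of short hairpin constructs. Nothing in the labels tells whether A and B are separate cultures. The p-values therefore cover the spread between libraries alone, and this spread may be technical.

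The mitochondrial respiratory chain moves electrons from NADH (complex I) and succinate (complex II) through complex III to complex IV, where oxygen is reduced. Complexes I, III and IV pump protons, and complex V uses the returning protons to make ATP. Most subunits are encoded in the nucleus, and many of their promoters are known to be bound by the transcription factors NRF1, GABP (an ETS factor) and YY1. Most of these genes are active in nearly every cell type.

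The group labels have to be read with care, because a library's label changes between sets of regions. Each value is a whole number of reads times a step that is fixed per library. In the 33913 regions of the common set the columns labelled shG8d have steps of 0.842 and 0.807 normalized reads per read (A and B), against 1.21 and 1.17 for shNC. In the 21459 shNC-specific and 2755 shG8d-specific regions these same steps stand under the opposite labels. The libraries with the smaller steps held 8124488 and 8111839 reads in regions and are called the deeper pair. The others held 4457248 and 4344212 and are called the shallower pair. The deeper pair thus bears the name shG8d in the common set and the name shNC in the other sets, and which naming is right was not settled. Differences are given within each set as labelled, shG8d minus shNC, with the set always named. They are not read as an effect of the knockdown in either direction. How the authors chose the specific regions is not given in the sources used here, so tests within those sets may not be independent of that choice. Of 11 markers of mammary epithelium, 10 had a region at a gene start, TP63 being the exception, and of 7 markers of blood, endothelial cells and fibroblasts 0 had one.

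Of the 91 genes, 60 had a region annotated as promoter, 48 regions of 47 genes in the common set and 13 regions of 13 genes in the shNC-specific set. Another 17 genes had a region within 1 kb of a start site (TSS) with a different annotation, and 14 had regions further away only. No member promoter was in the shG8d-specific set. The median common member promoter lay 10 bp downstream of its TSS and held 119 and 121 normalized reads in the libraries labelled shG8d and 117 and 110.1 in those labelled shNC. Over all 6542 common promoters the medians were 108 and 111 in shG8d against 106 and 97.2 in shNC. Region lengths were not used here, so these medians and any ranking by mean signal carry no correction for length. They are not read as differences between genes, and libraries are compared only within a region.

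Short motifs were counted in windows around the annotated starts of these genes, not in the ATAC-seq regions themselves. RefSeq promoter windows (GRCh38.p14, 250 bases before to 50 after each start) matched 52 of the 60 genes. The NRF1 core GCATGCGC, searched on both strands, was in 11 of the 52 windows (21.2%), against 5.41% of the 6796 matched windows of all genes with a promoter region and 3.27% of all 27305 windows. The ETS core CCGGAAG was in 28.8% of member windows, against 18.8% and 10.7%. The YY1 core AAGATGGC was in 13.5%, against 5.55% and 3.03%. The GC box GGGCGG was in 69.2% against 71.9% of the genes with a promoter region, CCAAT in 32.7% against 38.6%, and the cyclic AMP element TGACGTCA in 5.77% against 3.22%. Each motif was counted on its own, so matches of different motifs may overlap, and an NRF1 core can be matched on both strands at once. Median GC content was 62.3% in member windows and 65.7% in those of all genes with a promoter region. These are matches of letters in a window, with no test, and show nothing about the factors. Split by accessibility, the NRF1 core was in 2 of 9 matched windows of common promoters higher in shG8d, 0 of 5 of those lower, and 7 of 27 of those that did not pass. In the shNC-specific set it was in 1 of 6 windows of promoters lower in shG8d, 0 of 1 higher, and 1 of 4 that did not pass.

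**Figure D1:**
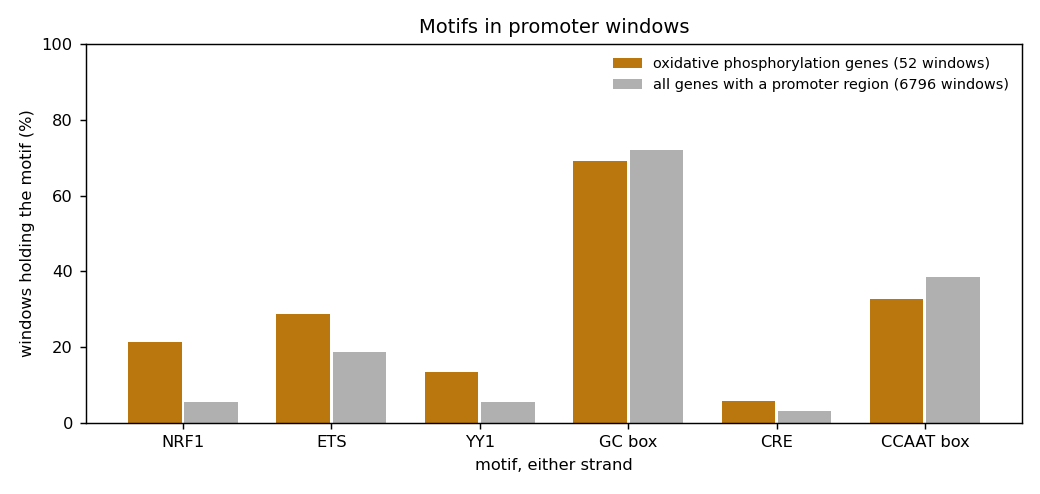
Share of promoter windows (vertical axis, percent) that hold each motif on either strand, for 52 oxidative phosphorylation genes and 6796 genes with a promoter region. The NRF1, ETS and YY1 cores are in 21.2%, 28.8% and 13.5% of member windows, against 5.41%, 18.8% and 5.55%, while the GC box is in 69.2% against 71.9%.

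Printed here are the 200 bases before the start of 6 genes whose promoters passed the test described next, chosen to show promoters from both ends of the range and with and without the motifs. Coordinates are GRCh38.p14, and capitals mark complete NRF1 or ETS cores. COX5B (chr2:97645862-97646061, plus strand) holds an NRF1 and an ETS core, COX18 (chr4:73069717-73069916, minus strand) a palindrome of overlapping NRF1 cores, and SDHB (chr1:17054033-17054232, minus strand) both kinds. NDUFB7 (chr19:14572067-14572266, minus strand) and NDUFA13 (chr19:19516025-19516224, plus strand) hold an ETS core, and NDUFA3 (chr19:54102655-54102854, plus strand) neither.
COX5B: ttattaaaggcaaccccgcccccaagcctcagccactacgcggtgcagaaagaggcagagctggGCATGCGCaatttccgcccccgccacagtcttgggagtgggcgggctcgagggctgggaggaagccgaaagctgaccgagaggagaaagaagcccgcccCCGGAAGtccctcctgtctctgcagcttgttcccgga
COX18: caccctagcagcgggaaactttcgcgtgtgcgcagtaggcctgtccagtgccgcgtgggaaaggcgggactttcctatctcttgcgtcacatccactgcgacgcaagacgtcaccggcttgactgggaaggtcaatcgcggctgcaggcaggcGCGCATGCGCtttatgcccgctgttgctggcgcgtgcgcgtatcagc
SDHB: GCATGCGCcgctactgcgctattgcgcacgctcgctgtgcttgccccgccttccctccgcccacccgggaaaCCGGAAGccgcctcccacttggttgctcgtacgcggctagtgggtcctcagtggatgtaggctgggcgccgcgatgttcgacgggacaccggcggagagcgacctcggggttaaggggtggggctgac
NDUFB7: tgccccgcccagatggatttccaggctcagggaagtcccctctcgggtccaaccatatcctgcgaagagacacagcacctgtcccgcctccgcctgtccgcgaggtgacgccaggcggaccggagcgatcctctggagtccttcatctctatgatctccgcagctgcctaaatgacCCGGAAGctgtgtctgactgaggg
NDUFA13: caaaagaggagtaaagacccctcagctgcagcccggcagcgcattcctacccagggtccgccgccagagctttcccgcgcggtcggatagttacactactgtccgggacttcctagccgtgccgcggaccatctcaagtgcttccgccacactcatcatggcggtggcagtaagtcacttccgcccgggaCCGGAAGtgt
NDUFA3: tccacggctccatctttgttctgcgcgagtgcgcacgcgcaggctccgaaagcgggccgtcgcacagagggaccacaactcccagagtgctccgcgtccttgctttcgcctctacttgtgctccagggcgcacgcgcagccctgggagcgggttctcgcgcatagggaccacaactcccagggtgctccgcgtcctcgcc

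Some of these starts are shared with a neighbour. In the RefSeq windows, 15 of the 52 genes (28.8%) had another gene starting on the opposite strand within 1000 bases, against 23.4% of the 6796 genes. Among genes with a promoter that passed the test, 5 had such a neighbour at the start of their window. UQCRFS1 had UQCRFS1-DT starting 102 bases away, NDUFAF2 had ERCC8 at 135 bases, SDHA had CCDC127 at 167 bases, NDUFA5 had ASB15 at 170 bases and NDUFA13 had TSSK6 at 677 bases. A single start per gene was used, and whether the tested region lies at that start was not checked. Where it does, the region cannot be assigned to either gene.

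In the common set, promoters of these genes moved in both directions and about as often as promoters in general. Of the 48, 10 (20.8%) were higher in the libraries labelled shG8d, where 19.9% of all common promoters were, and 6 (12.5%) were lower, where 11.7% were. The test was limma's moderated test on log2(normalized reads + 1) over all 58127 regions, with a Benjamini-Hochberg adjusted p under 0.05 as the threshold. The median log2 difference was 0.05 over the members and 0.06 over all common promoters. Counting both directions, the groups did not overlap at 34 (70.8%) of the members and at 69.9% of all common promoters. Groups that stand apart were therefore the usual state, with 2 libraries in each. By role, 4 of the 24 promoters of complex I subunits and assembly factors were higher and 5 lower. Of the 13 for complex IV, 5 were higher and 0 lower, of the 9 for complex V 1 was higher and 1 lower, and neither of the 2 for complex III passed. Whether the roles differ from each other was not tested. The median member difference was 0.04 without the library labelled shG8d A, 0.10 without shG8d B, 0.02 without shNC A and 0.07 without shNC B. With a library left out, the number of calls changed over the whole table and not at the members alone. Scaling by equal library totals moves the median of all regions by −0.35 (deeper minus shallower). Under it 2 of the 48 member promoters were higher and 12 lower, where 511 and 1938 of all 6542 common promoters were. Over all common promoters the share of called promoters that were higher was then 20.9%, against 63.0% with the authors' scaling.

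**Figure D2:**
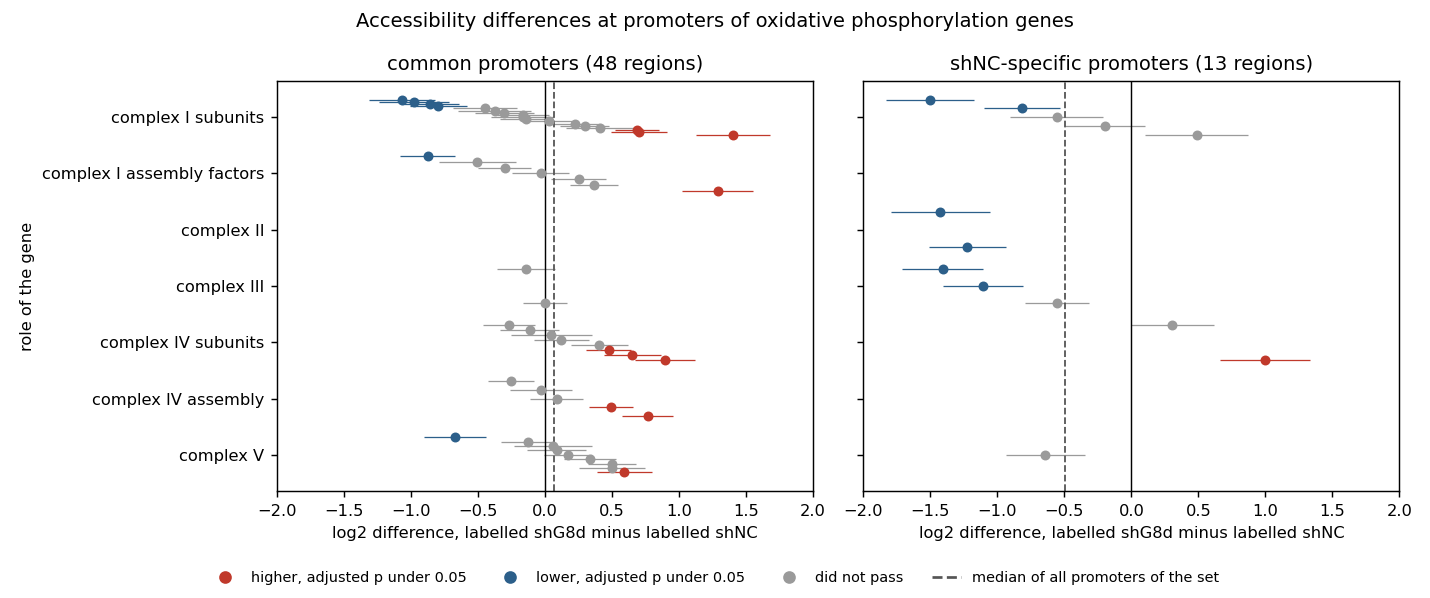
Log2 difference in accessibility, labelled shG8d minus labelled shNC (horizontal axis), at 48 common and 13 shNC-specific promoters, grouped by role (vertical axis), with bars of 1 standard error. In the common panel the points spread to both sides of 0 and those that passed run from −1.07 to 1.40, and in the shNC-specific panel 6 of the 7 that passed lie below 0.

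Complex I, the NADH dehydrogenase, held the extremes of the common set. NDUFA3, an accessory subunit, had 75.7 and 102 normalized reads in the libraries labelled shG8d (A and B), against 33.8 and 31.6 in those labelled shNC, in a region at −71 bp from its TSS on chromosome 19. The means were 89.1 ± 18.9 in shG8d and 32.7 ± 1.55 in shNC (SD, n = 2 each), and they differed by 1.40 on the log2 scale (SE 0.276, limma adjusted p = 0.00177). Both shG8d libraries stood above both shNC libraries by more than the gap within either group. Without shG8d B the adjusted p of NDUFA3 from limma was 0.0528. NDUFA11, another accessory subunit, had 476 and 408 normalized reads in shG8d against 291 and 258 in shNC (log2 difference 0.68, SE 0.164, adjusted p = 0.00631). NDUFV2, an iron-sulfur subunit of the NADH-oxidising module, had 144 and 146 in shG8d against 99.1 and 79.7 in shNC (0.70, SE 0.206, adjusted p = 0.0197). The groups did not overlap for either gene, and without shG8d A the adjusted p was 0.170 for NDUFA11 and 0.148 for NDUFV2, while without shG8d B it was 0.0391 and 0.145.

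On the other side, NDUFA13, also known as GRIM-19, had 42.9 and 50.03 normalized reads in shG8d and 97.9 and 98.4 in shNC, 31 bp from its TSS on chromosome 19. The means of NDUFA13 were 46.5 ± 5.03 in shG8d and 98.1 ± 0.398 in shNC (SD, n = 2 each), and they differed by −1.07 on the log2 scale (SE 0.245, limma adjusted p = 0.00482). The accessory subunit NDUFA5 had 38.7 and 44.4 in shG8d against 78.5 and 86.7 in shNC (log2 difference −0.98, SE 0.260, adjusted p = 0.0116). NDUFB3 and NDUFB5, accessory subunits of the membrane arm, had 73.2 and 87.2, and 78.3 and 69.4, in shG8d, against 128 and 165, and 124 and 134, in shNC. Their log2 differences were −0.86 (SE 0.216) and −0.80 (SE 0.213), with adjusted p of 0.00839 and 0.0116. For these 4 promoters every shG8d library lay below every shNC library. Without shG8d A none of the 4 passed, with limma adjusted p of 0.0609 for NDUFA13, 0.107 for NDUFA5, 0.120 for NDUFB3 and 0.0619 for NDUFB5, and without shG8d B that of NDUFB5 was 0.124.

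The remaining 10 common promoters of complex I subunits did not pass, with log2 differences from −0.45 at NDUFAB1, the mitochondrial acyl carrier protein, to 0.41 at NDUFB4 and adjusted p from 0.185 to 0.916. Assembly factors also split. NDUFAF6 had promoter regions at −20 and −85 bp from a TSS. The nearer one had 134 and 147 normalized reads in shG8d and 78.5 and 41.0 in shNC (log2 difference 1.29, SE 0.263, adjusted p = 0.00227). Both shG8d libraries stood above both shNC libraries, which differed from each other by a larger factor than shNC A did from shG8d A. The region at −85 bp was at 0.25 (SE 0.205, adjusted p = 0.399). NDUFAF2 was lower, at 78.3 and 88.8 in shG8d against 149 and 159 in shNC (−0.88, SE 0.203, adjusted p = 0.00510, but 0.0845 without shG8d A). The other 4 assembly factors, NDUFAF1, NDUFAF3, NDUFAF4 and NDUFAF7, lay between −0.51 and 0.37 and did not pass.

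**Figure D3:**
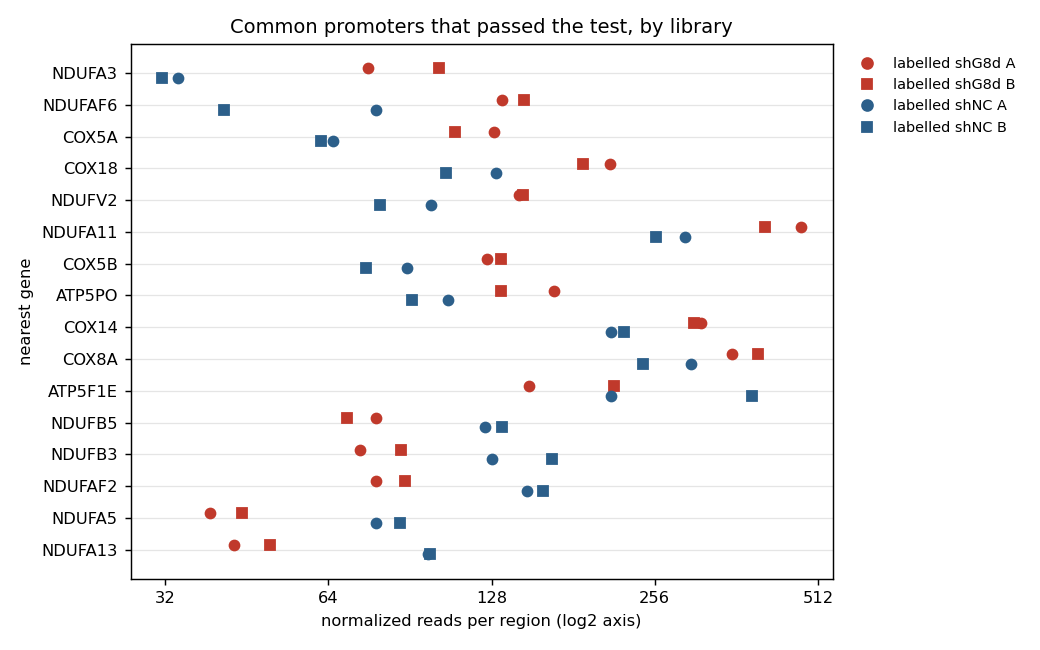
Normalized reads per region (horizontal axis, log2 scale) in each library for the 16 common promoters that passed the test, ordered by log2 difference, with circles for library A and squares for library B. The groups are apart for every gene except ATP5F1E, where shG8d B (215) lies above shNC A (213). Over all common promoters they are apart, in either direction, at 69.9%.

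Complex IV, cytochrome c oxidase, had 5 of its 13 common promoters called higher and 0 lower with the authors' scaling. With equal library totals 0 were higher and COX20 and COX7A2L passed as lower, at −0.61 and −0.62 (limma adjusted p = 0.0122 and 0.0210). COX5A, a nuclear-encoded subunit, had 129.6 and 109.8 normalized reads in shG8d and 65.2 and 62.1 in shNC (log2 difference 0.90, SE 0.223, limma adjusted p = 0.00787). COX5B, which binds zinc, had 125 and 133 in shG8d and 89.4 and 74.98 in shNC (0.65, SE 0.211, adjusted p = 0.0314). COX8A had 355 and 397 in shG8d and 298 and 244 in shNC (0.48, SE 0.168, adjusted p = 0.0463). COX18, which helps insert a mitochondrially encoded core subunit into the membrane, had 212 and 189 in shG8d and 130.5 and 105 in shNC (0.77, SE 0.192, adjusted p = 0.00824). COX14, an assembly factor, had 312 and 303 in shG8d and 213 and 225 in shNC (0.49, SE 0.165, adjusted p = 0.0379). All 5 had both shG8d libraries above both shNC libraries. Groups stood apart, in either direction, at 69.9% of all common promoters. Their calls rested on the libraries used. Without shG8d A the adjusted p was 0.144 for COX5A, 0.168 for COX5B, 0.188 for COX8A, 0.140 for COX18 and 0.293 for COX14. Without shG8d B it was 0.219 for COX5B, 0.360 for COX8A and 0.219 for COX14, and without shNC B it was 0.0597 for COX5B and 0.104 for COX8A. With equal library totals the log2 differences of these 5 were 0.12 to 0.55, and none passed. The 5 common subunit promoters that did not pass, those of COX6A1, COX6B1, COX7C, COX7A2L and NDUFA4, ranged from −0.27 to 0.40, and assembly genes COX10, COX17 and COX20 from −0.26 to 0.09.

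Complex V, the ATP synthase, had 1 promoter of 9 on each side. ATP5PO, the stalk subunit that confers oligomycin sensitivity, had 167 and 133 normalized reads in shG8d and 106 and 91.4 in shNC (log2 difference 0.59, SE 0.206, adjusted p = 0.0435). ATP5F1E, the epsilon subunit, had 149.8 and 215 in shG8d and 213 and 388 in shNC (−0.67, SE 0.233, limma adjusted p = 0.0423), with overlapping groups. Both calls depended on single libraries, as the adjusted p was 0.419 for ATP5PO and 0.398 for ATP5F1E without shG8d A, 0.0964 for ATP5PO without shG8d B, and 0.0678 and 0.345 without shNC B. ATP5F1B, the catalytic beta subunit, had 215 and 205 in shG8d and 158 and 139 in shNC and missed the threshold (0.50, SE 0.180, adjusted p = 0.0513). Both common promoters of complex III were close to 0. UQCRQ had 286 and 266 normalized reads in shG8d and 256 and 298 in shNC, and UQCR11 was at −0.14 (adjusted p = 0.679).

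Among the 13 shNC-specific promoters, lower calls outnumbered higher ones in the libraries labelled shG8d, which here are the shallower pair. The same held over all promoters of this set. The set is named for the libraries labelled shNC, and how it was chosen is not given. Adjusted p-values in this set, here and below, may therefore not be independent of that choice. Of the 13, 6 (46.2%) were lower, where 29.7% of all 2807 shNC-specific promoters were, and 1 (7.69%) was higher, where 0.926% were. The median log2 difference was −0.64 over the 13 and −0.49 over all of them. Counting both directions, the groups did not overlap at 11 (84.6%) of the 13 and at 63.9% of all shNC-specific promoters. Both promoters of complex II were among the lower. SDHA, the flavoprotein of succinate dehydrogenase, had 20.5 and 14.1 normalized reads in shG8d and 38.7 and 58.1 in shNC, from 17 and 12 reads against 46 and 72 (log2 difference −1.43, SE 0.370, limma adjusted p = 0.00991). SDHA has near-identical pseudogene copies, so its reads are uncertain. SDHB, the iron-sulfur subunit, had 55.6 and 29.3 in shG8d and 90.0 and 102 in shNC (−1.22, SE 0.290, adjusted p = 0.00592). The shG8d libraries were below both shNC libraries at each gene, and for SDHB they differed from each other by a larger factor than shG8d A did from shNC A.

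Complex III, cytochrome bc1, contributed UQCRFS1, the Rieske iron-sulfur protein, with 31.4 and 22.3 normalized reads in shG8d and 67.3 and 76.7 in shNC (log2 difference −1.41, SE 0.303, limma adjusted p = 0.00325). UQCRC1, a core subunit, had 39.9 and 26.9 in shG8d and 61.4 and 83.9 in shNC (−1.11, SE 0.301, adjusted p = 0.0129). CYC1, cytochrome c1, had 65.2 and 55.1 in shG8d and 86.7 and 90.4 in shNC and did not pass (−0.55, SE 0.238, adjusted p = 0.0973). For all 3 the groups did not overlap. In complex I, NDUFB7, an accessory subunit, had the largest difference of any member promoter, with 56.8 and 22.3 in shG8d and 100.1 and 106 in shNC (−1.50, SE 0.329, adjusted p = 0.00357). The shG8d values of NDUFB7 differed from each other by a factor larger than that between shG8d A and either shNC library. NDUFB10, another accessory subunit, had 50.7 and 35.1 in shG8d and 63.1 and 89.6 in shNC (−0.82, SE 0.286, adjusted p = 0.0440).

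COX7B, a small subunit of complex IV encoded on the X chromosome, went the other way. It had 41.1 and 53.9 normalized reads in shG8d and 24.4 and 21.8 in shNC (log2 difference 0.998, SE 0.336, limma adjusted p = 0.0372), and both shG8d libraries stood above both shNC libraries. It was 1 of 26 promoters of the 2807 called higher in this set. COX4I1, of the same complex, was at 0.30 (adjusted p = 0.505) and ATP5F1D at −0.64 (adjusted p = 0.119). The calls in this set depended on the library labelled shNC B, without which NDUFB7 alone passed (adjusted p = 0.0160) and the other 6 had adjusted p from 0.0511 at SDHB to 0.387 at NDUFB10. Without shNC A, NDUFB10 and COX7B had 0.0688 and 0.132, and without shG8d B 0.132 and 0.139. Leaving out either library labelled shNC lowered the number of calls over all promoters of the set as well. Fitted within this set alone 4 members were lower and 0 higher, with limma adjusted p of 0.0522 for UQCRC1, 0.132 for NDUFB10 and 0.0855 for COX7B. Over all 2807 promoters that fit gave 407 lower and 5 higher, against 835 and 26 in the main fit. With equal library totals 4 members were lower and 1 higher, where 422 and 125 of all 2807 promoters of the set were. The share of called promoters of the set that were higher was then 22.9%, against 3.02%.

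**Figure D4:**
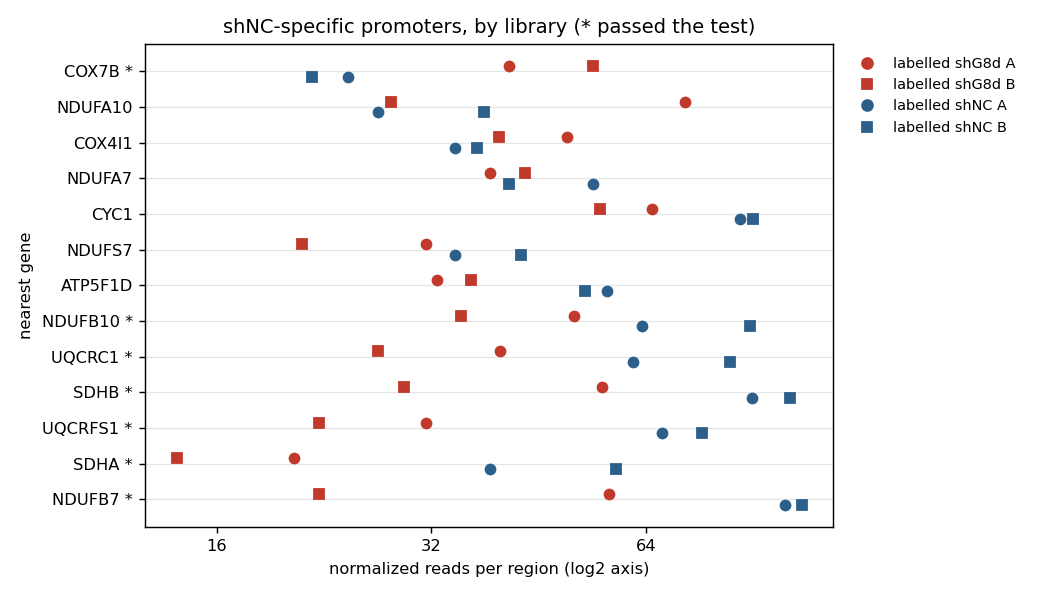
Normalized reads per region (horizontal axis, log2 scale) in each library for the 13 shNC-specific promoters, ordered by log2 difference, with an asterisk for those that passed. At NDUFB7, SDHA, UQCRFS1, SDHB, UQCRC1 and NDUFB10 both libraries labelled shG8d lie below both labelled shNC, and at COX7B both lie above. Over all shNC-specific promoters the groups are apart, in either direction, at 63.9%.

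Named by library and not by label, the 2 sets can be put side by side. Over all 61 member promoters, 16 (26.2%) were higher in the deeper pair and 7 (11.5%) lower. Over all 9614 promoters of the table the shares were 22.2% and 10.1%. Deeper minus shallower, the log2 difference had a median of 0.12 at member promoters and 0.19 at all promoters. The 9614 also hold the 265 shG8d-specific promoters, a set without any member promoter. Of these 265, 183 passed with more signal in the shallower pair and 1 with less. Members and background thus mix the sets differently, and their shares and medians are not read as a difference between them.

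Other mitochondrial and energy genes were taken from lists of known members. Of 24 common promoters of assembly factors and electron carriers outside the naming rule, 5 (20.8%) were higher in shG8d and 1 (4.17%) lower. Over all common promoters 19.9% were higher and 11.7% lower. Of 5 shNC-specific ones on the list 0 were higher and 1 lower, where 0.926% and 29.7% of all promoters of that set were. ECSIT, a complex I assembly factor, had 179 and 196 normalized reads in shG8d and 94.2 and 89.0 in shNC (log2 difference 1.03, SE 0.193, limma adjusted p = 0.00131, and at most 0.0301 with any library left out). UQCC3, which helps assemble complex III, lay in the shG8d-specific set, with 91.8 and 83.2 in shG8d and 41.2 and 39.5 in shNC (1.09, adjusted p = 0.00550). In that set 69.1% of the 265 promoters were higher in shG8d and 0.377% lower, and the groups did not overlap at 91.7%. ETFA, the electron transfer flavoprotein, was shNC-specific, with 72.5 and 63.3 in shG8d and 132 and 139 in shNC (−0.99, adjusted p = 0.00337). Groups were apart for all 3, and UQCC3 and ETFA also passed with each library left out.

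Regulators of mitochondrial biogenesis had 0 of 10 common promoters higher and 2 lower, where 19.9% and 11.7% of all common promoters were. Of 3 shNC-specific ones 0 were higher and 1 lower, where 0.926% and 29.7% of all promoters of that set were. PPARGC1B, a coactivator of mitochondrial biogenesis, had 49.5 and 23.4 normalized reads in shG8d and 86.7 and 120.2 in shNC (shNC-specific, log2 difference −1.55, SE 0.315, limma adjusted p = 0.00218). PPARGC1A, its relative PGC-1 alpha, had 21.9 and 21.0 in shG8d and 42.3 and 45.7 in shNC (common, −1.003, SE 0.339, adjusted p = 0.0380, and 0.165 without shG8d A, 0.171 without shG8d B and 0.0786 without shNC B). TEFM, a mitochondrial transcription elongation factor, had 58.9 and 93.6 in shG8d and 149 and 109 in shNC (common, −0.77, SE 0.246, adjusted p = 0.0298). TEFM did not pass without shG8d A (adjusted p = 0.408) or without shNC A (0.0732).

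For other housekeeping machines, read against the same background, common promoters higher and lower were 3 and 1 of 8 for the citric acid cycle, 3 and 0 of 8 for glycolysis, 2 and 4 of 32 for the mitochondrial ribosome, 3 and 5 of 49 for the cytosolic ribosome, and 4 and 8 of 20 for the proteasome. Their median log2 differences were 0.35, 0.21, −0.26, −0.06 and −0.34. Over all common promoters 19.9% were higher and 11.7% lower, with a median of 0.06. In the shNC-specific set 6 of 11 mitochondrial ribosome promoters were lower (median −1.002), 1 of 10 for the cytosolic ribosome, 3 of 6 for glycolysis, 0 of 1 for the citric acid cycle and 0 of 5 for the proteasome, with 1 proteasome promoter higher. Over all shNC-specific promoters 29.7% were lower and 0.926% higher, with a median of −0.49. Differences between these lists and the oxidative phosphorylation genes were not tested.

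Outside promoters, 67 common and 43 shNC-specific regions had a member as their nearest gene, which does not show that they act on it. Of the common ones 5 (7.46%) were higher in shG8d, where 8.53% of all common regions outside promoters were, and 9 (13.4%) lower, where 15.8% were. Of the shNC-specific ones 0 were higher, where 0.986% were, and 7 (16.3%) lower, where 10.8% were. The median log2 differences were −0.18 and −0.28, against −0.16 and −0.21 over all such regions of each set. The lone shG8d-specific member region, in an intron 157 bp from the TSS of ATP5ME, had 71.3 and 66.8 normalized reads in shG8d and 58.9 and 37.1 in shNC (0.55, limma adjusted p = 0.163).

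Of the 17 regions within 1 kb of a start but annotated as exon, intron, noncoding or untranslated, 13 were common, 3 shNC-specific and 1 shG8d-specific. Of the common ones 2 were lower in shG8d, where 14.4% of all 2275 such common regions were, and 0 higher, where 10.5% were. None of the 3 shNC-specific ones passed, where 17.1% of all 876 were lower and 1.71% higher. NDUFB6, an accessory subunit of complex I, had 93.4 and 115 normalized reads in shG8d and 265 and 327 in shNC in an intronic region 401 bp from its TSS on chromosome 9 (common, log2 difference −1.50, SE 0.190, limma adjusted p = 3.86e-05). It was lower with every library left out. UQCRC2, a core subunit of complex III named after its values were seen, had 76.6 and 109 in shG8d and 175 and 209.7 in shNC at 113 bp from its TSS (common, −1.06, SE 0.212, adjusted p = 0.00194, but 0.0639 without shG8d A).

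NDUFV2, whose promoter was higher in shG8d, had 7 other common regions, of which 3 intergenic ones were lower and 4 did not pass. Those 4 lay at 0.30 (14815 bp), 0.26 (−28739 bp), −0.01 (−85109 bp) and −0.54 (−141396 bp). The nearest lower one, at −46919 bp from the TSS on chromosome 18, had 44.6 and 26.6 normalized reads in shG8d and 119.6 and 130.1 in shNC (log2 difference −1.82, SE 0.271, limma adjusted p = 0.000197). The other lower ones, at −119501 and −153872 bp, had log2 differences of −1.18 and −1.12 (adjusted p = 0.0144 and 0.00285), and the first of these did not pass without shG8d A (0.0860) or B (0.0652). Distant introns assigned to NDUFB9, an accessory subunit of complex I, and COX6C, a subunit of complex IV, moved in opposite directions. NDUFB9 had 256 and 272 in shG8d and 117 and 112 in shNC at 87789 bp (1.19, SE 0.179, adjusted p = 0.000213). COX6C had 22.7 and 21.0 in shG8d and 60.4 and 96.1 in shNC at 94632 bp (−1.76, SE 0.319, adjusted p = 0.000984).

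The largest difference of any member region was in the shNC-specific set, at −26675 bp from the TSS of COX5B on chromosome 2. It held 4 and 4 reads in the libraries labelled shG8d and 52 and 60 in those labelled shNC, or 4.83 and 4.69 against 43.8 and 48.4 normalized reads. The log2 difference for this COX5B region was −3.03 (SE 0.441, limma adjusted p = 0.000163), and the pseudocount understates it. Without shNC A or B the adjusted p was 0.0535 and 0.0671. A region in the shNC-specific set at −2415 bp from the TSS of NDUFS8, an iron-sulfur subunit of complex I, had 85.8 and 59.8 normalized reads in shG8d and 202 and 164 in shNC (−1.33, SE 0.221, adjusted p = 0.000488) and passed with every library left out. NDUFAF5 had 36.2 and 11.7 in shG8d and 57.2 and 62.9 in shNC in an intron (−1.49, adjusted p = 0.0130, and 0.0574 to 0.0878 without shNC A, shNC B or shG8d B). ATP5MGL, COX18 at 98011 bp and NDUFS8 at −9864 bp had −0.98, −0.87 and −0.86 (adjusted p = 0.00701, 0.0388 and 0.0446). Left-out libraries ended 5 of the 7 calls without shNC A, 6 without shNC B, 1 without shG8d A and 2 without shG8d B.

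**Figure D5:**
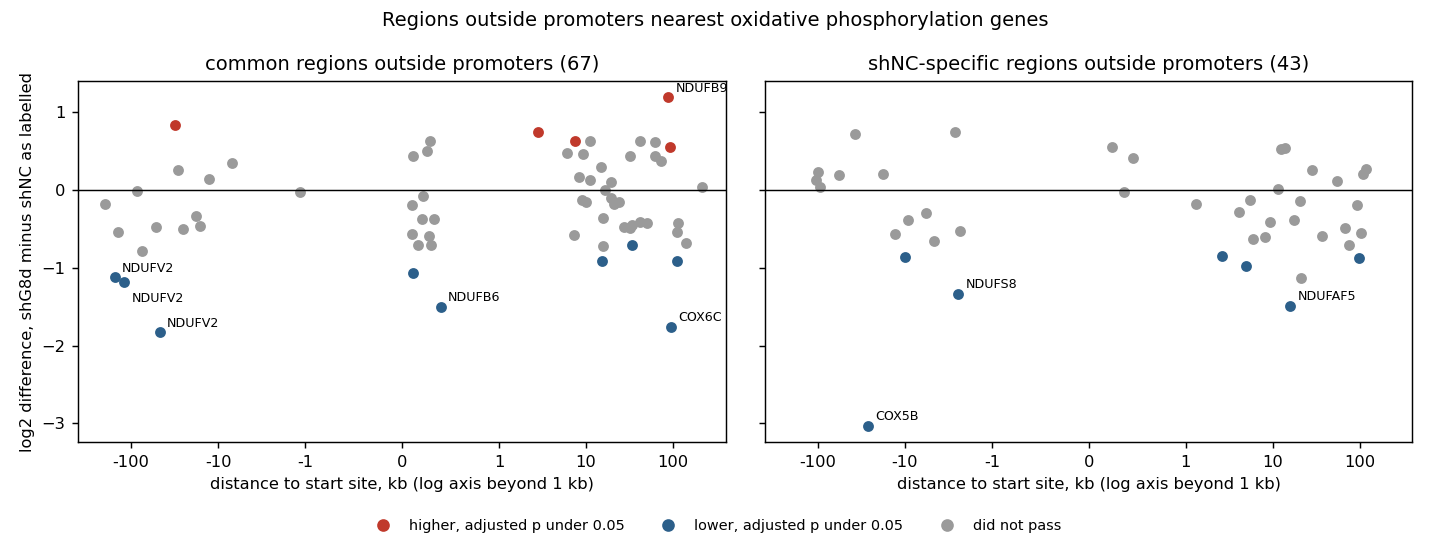
Log2 difference, labelled shG8d minus labelled shNC (vertical axis), against distance to the nearest start site in kb (horizontal axis, logarithmic beyond 1 kb) for 67 common and 43 shNC-specific regions outside promoters. Genes are named where a region passed with a difference beyond 1.1, from COX5B at −3.03 to NDUFB9 at 1.19.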

How the data were processed

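The authors deposited 1 table of 58127 ATAC-seq regions. Per the file headers, its columns are a log10 normalized value for each library, a log2 fold change, an unadjusted p-value, a genomic annotation, the gene, and a score for position (signed bases to the nearest TSS). CASAVA 1.4 and hg19 stand in the submitters' processing notes; no source used here names the aligner, peak caller or counter. The deposited log2 fold change and p-value were not used for calls.

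Each value was taken as a power of 10. All were whole multiples of a step per column and set (100% within 0.05 reads), which gave reads per region and told the libraries apart. A count of 3 reads equals 2.42 to 3.62 normalized reads, depending on the library; this limit covers counting error only. Tests used limma 3.58.1 in R 4.3.3 on log2(normalized reads + 1) with a fitted mean-variance trend and Benjamini-Hochberg adjustment over all regions. A filter of 10 normalized reads in at least 2 libraries removed 0 regions. The pseudocount understates changes of low regions. The fit was tested on simulated data. Promoters follow the authors' annotation. Named promoters are, per set, the 15 of largest absolute difference among those that passed, and the 3 of highest mean signal; up to 6 other regions per set are named. Members and lists were chosen with earlier results of these data known.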

Additional observations from a re-analysis of the deposited data

How the results depend on the processing

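Of the named regions that passed, 35 in number, none changed direction under any setting, and all kept their call with a pseudocount of 0.5 or 5, no filter or one of 30 normalized reads, the replicate block, or limma-voom on recovered reads, an alternative chosen after seeing the data. With equal library totals 22 of 35 kept it. UQCRQ, named for its signal and at −0.00018, did not pass under any setting and ranged from −0.35 to 0.11. With equal library totals, member counts were 2 higher and 12 lower at common promoters, against 10 and 6 with the authors' scaling. Over all 6542 common promoters they were 511 and 1938, against 1299 and 764. Member counts were 1 and 28 at other common regions (5 and 9) and 4 and 3 at other shNC-specific regions (0 and 7). The shG8d-specific region gave 1 higher (0). Counts over all regions outside promoters were not taken under this scaling. The member counts there are therefore not read as a result about the members. Fitted within each set, shNC-specific promoters gave 0 higher, and other shNC-specific regions 3 lower.

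With each library left out in turn, common promoters ranged from 2 to 12 higher and 0 to 6 lower, shNC-specific promoters from 0 to 1 higher and 1 to 7 lower, other common regions from 1 to 7 higher and 5 to 16 lower, and other shNC-specific regions from 0 to 1 higher and 1 to 9 lower. Calls over all regions ranged from 4629 to 19153, against 13697 with all libraries. The spread then comes from the complete pair, the lone library being assumed to vary alike. The cause of these changes was not tested.

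The correlation of A minus B between groups was −0.00393 over all regions and −0.156 over the 172 member regions. Whether libraries of the same letter were prepared together cannot be told from these values. With the letter as a replicate block, 11 common promoters were higher and 6 lower, and 15308 regions passed in all. Count tests with edgeR and DESeq2 were planned and not run; limma-voom on the recovered reads was run in their place. Depth limits the shallower pair, at 4457248 and 4344212 reads in regions.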
